A study of Homo sapiens with 48 samples.

Results

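The IκB family comprises the 6 genes NFKBIA, NFKBIB, NFKBIE, NFKBIZ, NFKBID and BCL3, taken here by name from the 20007 protein-coding genes of GENCODE 44. IκB proteins bind NF-κB dimers through ankyrin repeats. The classical members IκBα (NFKBIA), IκBβ (NFKBIB) and IκBε (NFKBIE) hold dimers in the cytoplasm until an IκB kinase marks them for degradation. The nuclear members IκBζ (NFKBIZ), IκBNS (NFKBID) and BCL3 act on NF-κB that is already on chromatin. Several of these genes are themselves known NF-κB targets, NFKBIA being the textbook example of negative feedback.

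RELA and RELB peaks, acetylation of histone H3 at lysine 27 (H3K27ac, a mark of active promoters and enhancers) and the AP-1 subunit FOSL1 were examined at these genes in L3.6pl cells, an established line of pancreatic ductal adenocarcinoma (PDAC). The cells received vehicle (PBS), TNFα for 30 min or 6 h, or TWEAK for 30 min or 6 h. TNFα is the study's activator of canonical NF-κB signaling, which releases RELA, and TWEAK its activator of noncanonical signaling, which acts through RELB. RELA, RELB and H3K27ac were mapped in all 5 treatments and FOSL1 in vehicle alone, in 48 samples, or 16 conditions of 3 replicates. Each condition is represented by 1 merged peak list, and the peak names of the RELA list after 30 min TNFα carry only the number of 1 replicate, so it is not settled that all 3 were merged there. No value below has a replicate error, no difference between treatments was tested, and an uncalled peak is not an absent protein.

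A peak was assigned to a gene when it overlapped the gene body or the 50 kb on either side, and its height is the fold enrichment over input that the peak caller gave. RELA and RELB peaks that overlapped were joined into 1 site. The 6 windows held 26 sites, and each of the 26 was called for RELA after 30 min TNFα. None of the 26 lay in tandem repeat sequence, which makes up much of the short RELA and RELB lists: outside such repeats the RELA lists held 439 peaks in vehicle, 8311 and 3664 after TNFα, and 683 and 456 after TWEAK, and the RELB lists held 296, 153, 411, 130 and 1639 in the same order. In vehicle, 5 of 5 epithelial marker genes (KRT8, KRT18, KRT19, EPCAM and CDH1) carried H3K27ac at a start site, against 1 of 4 leukocyte genes (CD3E), 1 of 2 endothelial genes (PECAM1) and 2 of 3 fibroblast genes (COL1A1 and PDGFRB).

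The sequences under the sites that carry the results are shown first. A match to the NF-κB consensus (the κB decamer, searched on both strands within 100 bp of the RELA summit) stands in capitals. The shown stretch is 61 bases around the RELA summit after 30 min TNFα, or 30 bases around the match where the longer stretch would enter an annotated UTR. The build is hg38, and the strand is that of the match nearest to the summit. The promoter site upstream of NFKBIA (chr14:35404786-35404846, plus strand), the site in NFKBIA intron 1 (chr14:35403953-35403982, plus), the NFKBIB promoter site (chr19:38899931-38899960, plus) and the NFKBIE promoter site (chr6:44265676-44265736, minus) and intron site (chr6:44263575-44263635, minus) belong to the classical members.
NFKBIA upstream site: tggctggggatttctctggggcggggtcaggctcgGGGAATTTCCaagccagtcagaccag
NFKBIA intron site: caggcgcccaGGGACTTTCCgcccccctcc
NFKBIB promoter site: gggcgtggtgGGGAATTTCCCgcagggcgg
NFKBIE promoter site: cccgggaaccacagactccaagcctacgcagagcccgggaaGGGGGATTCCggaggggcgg
NFKBIE intron site: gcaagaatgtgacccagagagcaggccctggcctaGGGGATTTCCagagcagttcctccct

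The nuclear members contribute the outer promoter of NFKBIZ (chr3:101827757-101827786, plus), its internal promoter (chr3:101849265-101849294, plus), the promoter at an alternative start of NFKBID (chr19:35899922-35899982, plus) and a distant NFKBID site inside NPHS1 (chr19:35846516-35846576, minus). For BCL3 they are a distal upstream site (chr19:44739067-44739127, plus), the promoter site (chr19:44747482-44747542, minus), the site at the start of the canonical transcript (chr19:44748700-44748729, plus) and the site in intron 2 (chr19:44753420-44753480, plus).
NFKBIZ outer promoter: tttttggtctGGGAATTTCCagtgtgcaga
NFKBIZ internal promoter: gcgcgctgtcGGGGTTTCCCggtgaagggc
NFKBID alternative start: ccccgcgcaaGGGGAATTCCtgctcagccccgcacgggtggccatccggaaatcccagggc
NFKBID distant site: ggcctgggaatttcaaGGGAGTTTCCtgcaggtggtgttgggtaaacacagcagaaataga
BCL3 distal site: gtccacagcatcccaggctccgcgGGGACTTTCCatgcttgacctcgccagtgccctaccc
BCL3 promoter site: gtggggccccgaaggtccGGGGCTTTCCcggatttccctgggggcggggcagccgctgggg
BCL3 canonical start: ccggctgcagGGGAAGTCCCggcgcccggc
BCL3 intron site: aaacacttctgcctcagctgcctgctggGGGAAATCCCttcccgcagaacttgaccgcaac

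Several of these decamers recurred within the family. GGGAATTTCC was read at the NFKBIA upstream site, the NFKBIB promoter and the outer NFKBIZ promoter, and occurred near the summit of 5.99% of all 8311 RELA peaks after 30 min TNFα outside tandem repeats. GGGACTTTCC was read at the NFKBIA intron site and at 2 BCL3 sites, and occurred at 3.75% of these RELA peaks and at 9.46% of the 1639 RELB peaks after 6 h TWEAK. At the NFKBIB promoter the motif read as a decamer on both strands, 1 base apart, since GGGAATTTCCC holds a match each way.

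RELA was called at every member after TNFα, and at all but NFKBID in vehicle and after TWEAK. After 30 min TNFα, 6 of 6 members had a RELA peak in their window, against 48.1% of all protein-coding genes. Within 1 kb of an annotated start 6 of 6 had one, against 11.5% of all genes. Shares over all genes, here and below, count every peak, those in tandem repeats included. The number of peaks in the 6 windows was 7 in vehicle, 26 at 30 min and 13 after 6 h TNFα, and 8 and 6 after 30 min and 6 h TWEAK. Members with a peak in the window numbered 5 in vehicle (background 5.05%), 6 after 6 h TNFα (26.8%), 5 after 30 min TWEAK (7.58%) and 5 after 6 h TWEAK (5.11%). The 5 members other than NFKBID, the gene of IκBNS, had a peak in each of the 5 RELA lists, as did 2.88% of all genes. Near a start, RELA was called at 5 members in vehicle (0.575% of all genes), 6 after 6 h TNFα (4.93%), 5 after 30 min TWEAK (1.22%) and 4 after 6 h TWEAK (0.55%).

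RELB was found at fewer members. It was called at 1 of 6 in vehicle (background 3.06%), 0 after 30 min TNFα (1.58%), 1 after 6 h TNFα (3.87%), 0 after 30 min TWEAK (1.39%) and 3 after 6 h TWEAK (13.6%). Within 1 kb of a start RELB was called at 1 member in vehicle (0.27% of all genes), 0 and 1 after TNFα (0.11% and 0.355%), and 0 and 3 after TWEAK (0.06% and 1.84%). NFKBIA was the member in vehicle and after 6 h TNFα, and NFKBIA, NFKBIE and BCL3 were the members after 6 h TWEAK. A RELB peak in at least 1 of the 5 lists was thus found at 3 of 6 members and at 14.5% of all genes, and NFKBIB, NFKBIZ and NFKBID had none in any list.

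**Figure D1:**
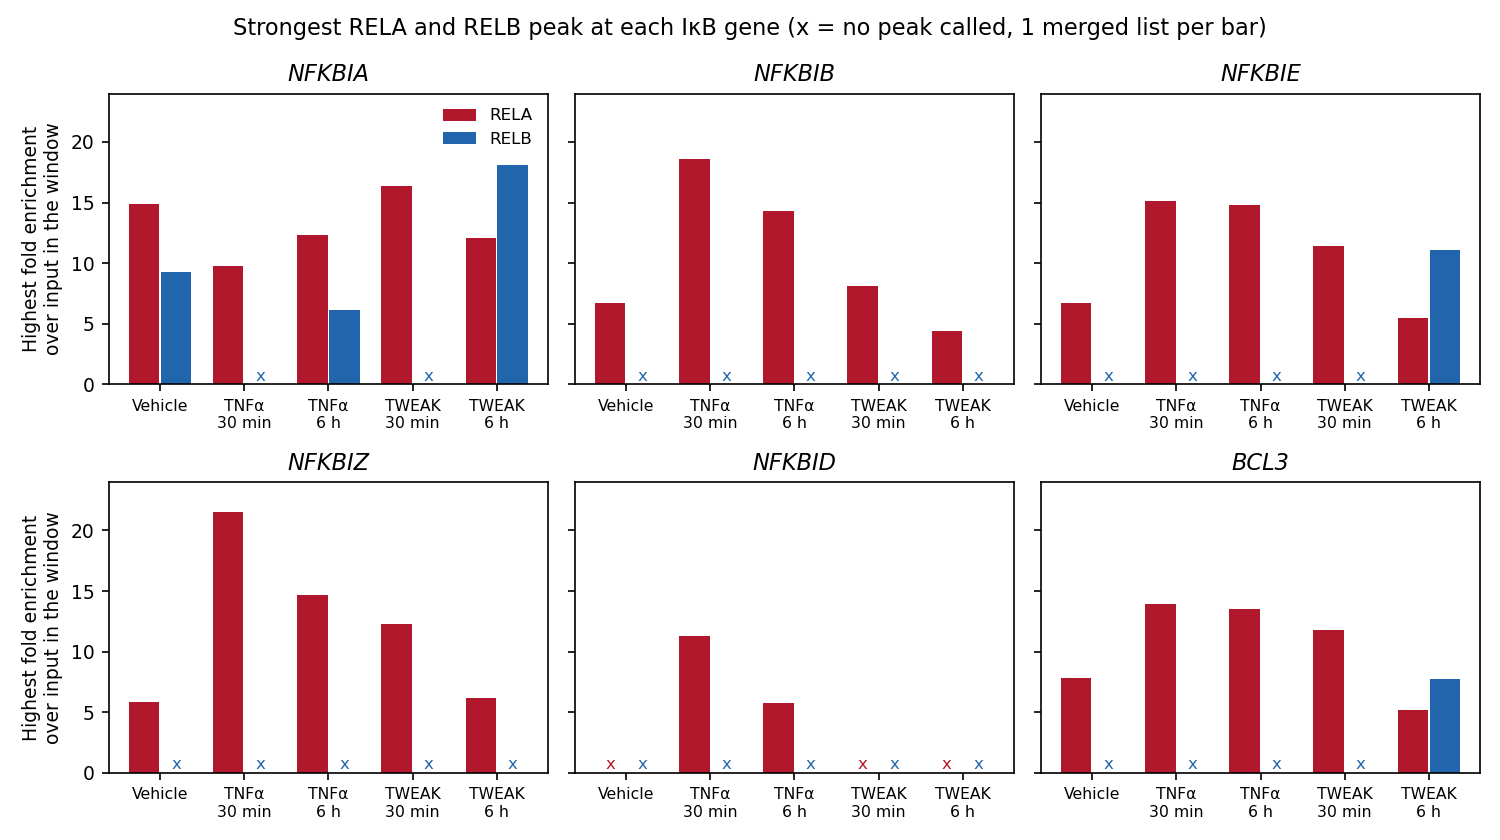
Highest fold enrichment over input of RELA (red) and RELB (blue) in the gene body and 50 kb on either side of each IκB gene, for the 5 treatments. Each bar is 1 merged peak list and x marks no called peak. The RELA bar after 30 min TNFα was the highest of the 5 RELA bars at 5 of the 6 genes and the lowest at NFKBIA, where it stood at 9.77.

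At NFKBIA (chr14:35401079-35404749, minus strand), the gene of IκBα, the binding lay at a pair of sites around the start and was present without any ligand. The upstream site, with its summit 67 bp before the first base of the gene, had a RELA fold of 4.96 in vehicle, 9.77 and 8.65 after 30 min and 6 h TNFα, and 6.81 and 5.78 after 30 min and 6 h TWEAK. The intron site, 821 bp into the gene in intron 1 and 24 bp from the start of a shorter transcript, had 14.9 in vehicle, 9.16 and 12.3 after TNFα, and 16.4 and 12.1 after TWEAK. The intron site was thus the higher of the pair in vehicle, where it ranked 19th of 439 RELA peaks outside tandem repeats. After 30 min TNFα the pair was near equal, at 9.16 in the intron and 9.77 upstream, without a replicate error to order them. The intron fold divided by the upstream fold was 3.0 in vehicle, 0.938 and 1.42 after 30 min and 6 h TNFα, and 2.41 and 2.09 after 30 min and 6 h TWEAK.

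The RELA fold after 30 min TNFα divided by that in vehicle was 0.615 at the intron site and 1.97 at the upstream site. Over the 361 RELA regions called in both lists the median ratio was 2.12, and 3.6% of them had a ratio below that of the intron site. The deposited −log10 q of the intron site was nevertheless 70.6 in vehicle and 84.4 after 30 min TNFα, so the fold and the significance of the same peak did not move together. Depth, which also enters the q value, is unknown for these lists.

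RELB was also called at the NFKBIA pair. The intron site carried a RELB fold of 9.23 in vehicle, 6.14 after 6 h TNFα and 18.1 after 6 h TWEAK, where it ranked 38th of 1639. The upstream site carried 5.43 after 6 h TNFα and 6.95 after 6 h TWEAK. Neither site was called for RELB at 30 min of either ligand. The RELB fold after 6 h TWEAK was 2.6 times as high in the intron as upstream, and the ratio of 6 h TWEAK to vehicle of 1.96 in the intron lay beside a median of 2.08 over the 202 RELB regions shared by those lists. NFKBIA was the member where RELB reached its highest fold, and its intron site was the 1 site of the family with RELB in vehicle.

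**Figure D2:**
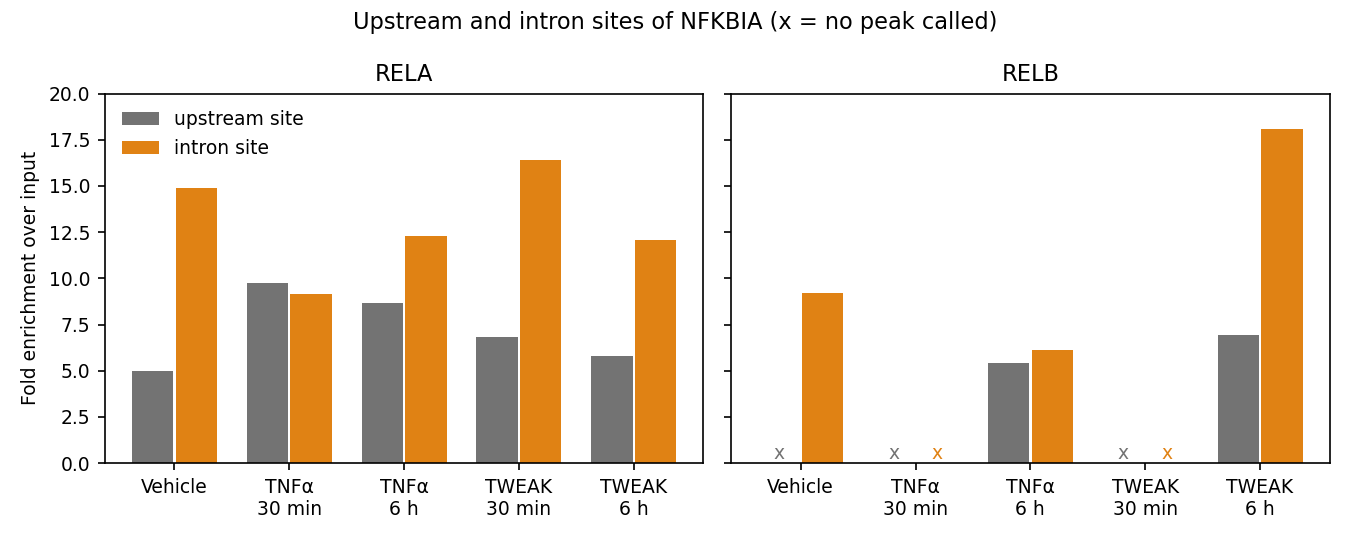
Fold enrichment over input at the upstream site (grey) and the intron site (orange) of NFKBIA in the 5 RELA lists (left) and the 5 RELB lists (right), with x for no called peak. The intron bar is the higher except for RELA after 30 min TNFα, where the values are 9.16 and 9.77.

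The other 4 sites of the NFKBIA window lay downstream, 26091 to 48288 bp from the start, and were called in no list but RELA after 30 min TNFα. Their RELA folds were 4.58, 6.09, 6.11 and 5.67, none held a κB match, and the start nearest to the 2 farthest was that of PSMA6, a proteasome subunit. The window holds no other protein-coding gene.

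NFKBIB (chr19:38899700-38908893, plus strand) encodes IκBβ. Its promoter site lay 11 bp from the nearest annotated NFKBIB start and had a RELA fold of 6.72 in vehicle, 18.6 and 14.3 after 30 min and 6 h TNFα, and 8.09 and 4.37 after 30 min and 6 h TWEAK. The fold after 30 min TNFα was the third highest of the 26 sites and ranked 141st of 8311. After 6 h TWEAK the same site was a weak call with a −log10 q of 2.48, and it carried no RELB peak in any list. Among the 210 RELA peaks after 30 min TNFα with a fold within 10% of this one, 61.9% were also called for RELB after 6 h TWEAK. A pair of weaker sites in SARS2, 27447 and 30632 bp from the start of NFKBIB, had RELA folds of 6.98 and 5.08 after 30 min TNFα and were in no other NF-κB list. The start nearest to each was that of SARS2, at 2986 and 199 bp. The site at 199 bp carried FOSL1, and H3K27ac in every list.

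NFKBIE (chr6:44258166-44265788, minus strand) encodes IκBε. The promoter site, 82 bp into the gene, had a RELA fold of 6.67 in vehicle, 15.1 and 14.8 after 30 min and 6 h TNFα, and 11.4 and 5.44 after 30 min and 6 h TWEAK, with a RELB fold of 11.1 after 6 h TWEAK. The RELA fold after 6 h TNFα divided by that after 30 min was 0.98, beside a median of 0.79 over the 2960 regions shared by those lists. Its RELB fold after 6 h TWEAK was 2.04 times its RELA fold in the same treatment, where the median over 331 regions shared by these lists was 1.52.

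The intron site of NFKBIE, 2183 bp into the gene, had no RELA call in vehicle or after TWEAK. It stood at 4.89 at 30 min and 9.09 after 6 h TNFα, and RELB was called there after 6 h TWEAK with 6.24. The 6 h to 30 min ratio of 1.86 was above that of 98.6% of the shared regions and was the highest of the family. H3K27ac was not called at this site in vehicle or after 30 min TWEAK, and was called after 30 min TNFα (2.13), 6 h TNFα (2.41) and 6 h TWEAK (2.71). The treatments with an H3K27ac call here were those with a RELA or RELB call. The distal site of BCL3, called in the same RELA and RELB lists, had no H3K27ac in any list, and a link was not tested.

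Among the nuclear members, NFKBIZ (chr3:101827991-101861022, plus strand) had the highest RELA folds of the family after 30 min TNFα. IκBζ is a coactivator of secondary response genes such as those of cytokines. The internal promoter lay 21378 bp into the gene, upstream of its canonical transcript and 145 bp from the nearest annotated start. Its RELA fold was 5.81 in vehicle, 21.5 and 14.7 after 30 min and 6 h TNFα, and 12.3 and 6.15 after 30 min and 6 h TWEAK. At the outer promoter, 205 bp before the gene and within the overlapping gene NXPE3, RELA was not called in vehicle and had 18.9 at 30 min and 10.3 after 6 h TNFα, 6.66 after 30 min TWEAK and no call after 6 h TWEAK. The internal promoter ranked 53rd of 8311 RELA peaks after 30 min TNFα, and the outer one 127th.

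Among the 7 sites called for RELA in vehicle, the internal promoter of NFKBIZ had the highest ratio to vehicle at 30 min of either ligand. The ratio was 3.7 after 30 min TNFα, above 96.7% of the 361 shared regions, and 2.12 after 30 min TWEAK, above 97.3% of the 300 regions shared there. The outer promoter was the 1 site of the family that was called after 30 min TWEAK and not in vehicle. RELB was called at neither promoter in any list, while 62.9% and 66.3% of the RELA peaks with folds within 10% of the outer and the internal one were called for RELB after 6 h TWEAK. At the family's sites with RELB in that treatment, this share ran from 4.05% (NFKBIE intron) to 49.0% (NFKBIE promoter). It was 33.6% at the alternative start of NFKBID, which had no RELB. A further site 7920 bp upstream, inside NXPE3, had a RELA fold of 7.41 after 30 min TNFα alone and no H3K27ac in any list.

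NFKBID (chr19:35887653-35902303, minus strand) had RELA peaks under TNFα only. The site 212 bp from an alternative start, in intron 1 of the canonical transcript, had a RELA fold of 11.3 at 30 min and 5.74 after 6 h TNFα. The ratio of 0.508 was the lowest of the 13 sites called at both times, and 10.5% of all shared regions had a lower one. A site near APLP1 had 7.93 and no κB match. The distant site inside NPHS1, 55757 bp from the start of NFKBID and 1036 bp from the nearest start of NPHS1, had 10.7, and both were called after 30 min TNFα alone. The distant site gained an H3K27ac peak after 30 min TNFα, with a broad-peak fold of 2.51, and carried none in the other lists. The NFKBIE intron site was the other of the 2 sites that gained the mark at that time.

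BCL3 (chr19:44747705-44760044, plus strand), whose product can turn p50 and p52 homodimers into activators, had the most sites, 9 of the 26. The promoter site, 193 bp before the gene, had a RELA fold of 7.81 in vehicle, 13.7 and 13.5 after 30 min and 6 h TNFα, 11.8 after 30 min TWEAK and no call after 6 h TWEAK, and a RELB fold of 6.05 after 6 h TWEAK. It was the 1 site of the family where a RELA call of vehicle was missing after 6 h TWEAK, and RELB was called there in that treatment. The intron 2 site, 5745 bp into the gene, had 6.86 in vehicle, 13.9 and 9.8 after TNFα, 6.88 and 5.21 after TWEAK, and a RELB fold of 5.01 after 6 h TWEAK.

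The distal site of BCL3, 8608 bp upstream, was called for RELA at 30 min (8.52) and 6 h TNFα (7.39) and for RELB after 6 h TWEAK (7.78), without RELA in vehicle, without FOSL1 and without H3K27ac in any list. The site at the canonical start, 968 bp into the gene, had 4.24 and 4.32 after 30 min and 6 h TNFα, near the low end of the family. The other 5 sites had RELA folds of 3.82 to 7.06 after 30 min TNFα, and 1 of them was called again at 6 h.

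**Figure D3:**
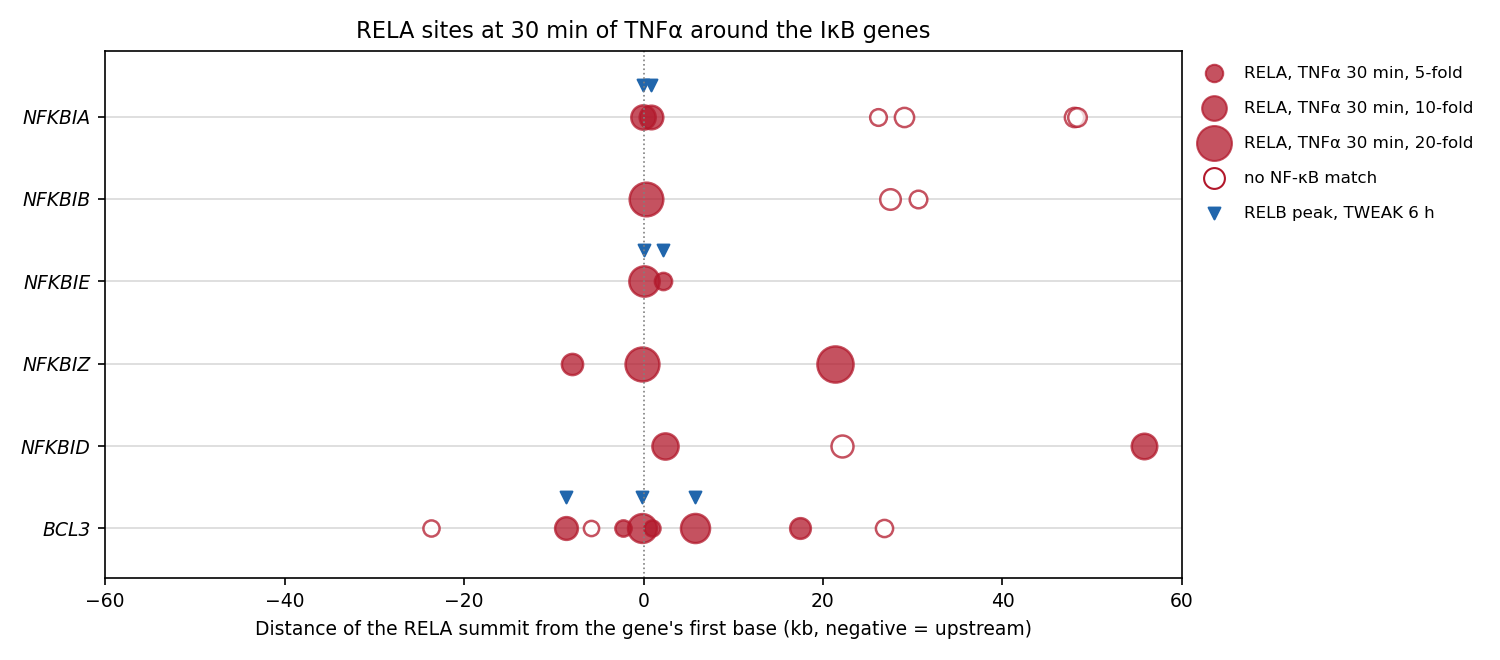
The 26 RELA sites after 30 min TNFα by distance from the first base of the gene in kb, on the strand of the gene. Circle area grows with RELA fold, filled circles hold a κB match, open circles do not, and triangles mark the 7 sites with a RELB peak after 6 h TWEAK. The 7 triangles stand over filled circles within 10 kb of the gene's first base.

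Over the family, the treatments that called a site divided the 26 into groups. Of the 26 RELA sites after 30 min TNFα, 19 were not called in vehicle and 7 were, where 95.7% of all RELA peaks of that list outside tandem repeats were not called in vehicle. After 6 h TNFα 13 of the 26 were called, with a background of 35.3%, after 30 min TWEAK 8 (7.78%) and after 6 h TWEAK 6 (4.33%). RELB after 6 h TWEAK covered 7 of the 26 (15.8%), and 6 of these 7 were not in the RELB vehicle list, where 87.7% of all such RELB peaks were not. In the other RELB lists 1 of the 26 was called in vehicle (2.49%), 0 and 2 after TNFα (1.13% and 4.03%) and 0 after 30 min TWEAK (0.987%). All 7 RELB sites were also called for RELA after 6 h TNFα, while after 30 min TNFα all 26 sites were. The share of all RELB peaks called for RELA after 6 h TNFα was not computed.

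Sites near starts and sites farther away differed in what they shared. The 9 sites within 1 kb of a member's start all had a κB match, FOSL1 and H3K27ac in vehicle, and all were called again after 6 h TNFα. Of the 17 sites farther away, 7 had a κB match, 8 FOSL1, 8 H3K27ac in vehicle and 4 a RELA call at 6 h. Within 1 kb of a start, 66.8% of all genes had H3K27ac and 50.8% had FOSL1 in vehicle. No share was computed over all RELA peaks split by distance from a start, so these counts are not shown to be particular to the family. The median RELA fold after 30 min TNFα was 13.7 near starts (4.24 to 21.5) and 6.09 farther away (3.82 to 13.9), so the ranges overlapped. The start nearest to 18 of the sites belonged to the member itself and that nearest to the other 8 to a neighbouring gene.

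The 13 sites called for RELA after 30 min TNFα and in no other NF-κB list had a median fold of 6.09 (4.3 to 10.7), and 4 of them held a κB match. The 13 sites shared by at least 2 lists had a median of 11.3 (3.82 to 21.5), and 12 held one. The groups thus also differ in fold, and all RELA peaks were not split in the same way. Over all 26 sites 16 held a κB match, against 49.5% of all RELA peaks after 30 min TNFα outside tandem repeats. All 7 sites with RELB after 6 h TWEAK held one, but the share of all RELB peaks with a match was not computed. A looser pattern of GGG and CC with any 5 bases between was found at 19 sites, against a background of 73.4%, and the AP-1 site TGANTCA at 5, against 19.0%. Both were searched on both strands, and every κB match is also a match of the looser pattern.

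**Figure D4:**
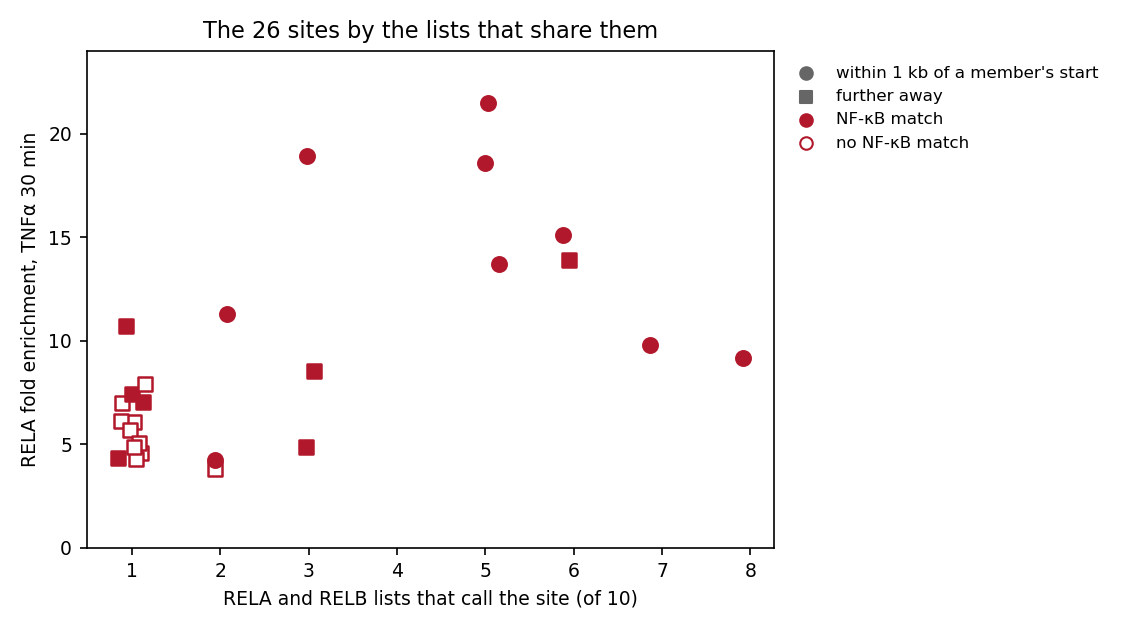
RELA fold enrichment after 30 min TNFα of the 26 sites against the number of RELA and RELB lists, of 10, that call the site. Filled symbols hold a κB match and circles lie within 1 kb of a member's start. The 13 sites in 1 list are all squares below 11-fold, and all but 1 of the sites in 2 or more lists are filled.

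κB matches were searched only within 100 bp of a summit, so closeness to it is partly set by the search. The centre of the nearest match lay within 25 bp of the RELA summit at 13 of the 16 sites with one, with a median of 11.0 bp. The same share was not computed over all RELA peaks. At a site called in several lists, the RELA and RELB summits spread over 11 to 118 bp, with a median of 39.0 bp over 13 sites. At the NFKBIE promoter the 6 summits, RELB included, spread over 23 bp. The widest spread was at the NFKBIB promoter, and at the internal promoter of NFKBIZ the single match lay 34.5 to 115.5 bp from the 5 summits, with a median of 89.5 bp that was the highest of these sites.

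RefSeq promoters (GRCh38.p14, 250 bases before to 50 after the start) were present for 5 members. These members have 9 promoters in all, of which 7 held a κB match, against 11.3% of all 35116 promoters. Each of the 5 members had at least 1 with a match, and 1 promoter of NFKBIB and 1 of NFKBID had none. NFKBIE has no entry. The matches were GGGAATTTCC for NFKBIA and the outer promoter of NFKBIZ, GGGAATTTCC, its overlapping match on the other strand and GGGGGGCCCC for NFKBIB, GGGGTTTCCC for the internal promoter of NFKBIZ, GGGGAATTCC for the alternative start of NFKBID and GGGAAGTCCC for BCL3. A further NFKBID promoter, which no RELA or RELB peak overlapped, held GGGGACTCCC. A match describes the letters of the window and does not show binding.

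H3K27ac was already present at the starts of all 6 members in vehicle, as at 66.8% of all genes. It was called in the windows of 6 of 6 members in each of the 5 lists, where the background was 91.5% of genes in vehicle, 90.2% and 91.5% after TNFα and 90.6% and 91.1% after TWEAK, with 49 peaks in vehicle, 49 and 51 after 30 min and 6 h TNFα, and 52 and 51 after 30 min and 6 h TWEAK. Of the 26 RELA sites, 17 carried the mark within 500 bp of the summit in all 5 lists (58.4% of all RELA peaks outside tandem repeats), which are also all those with it in vehicle (63.2%), and 7 carried it in none. Against vehicle, 2 gained it after 30 min TNFα (12.1%), 1 after 6 h TNFα (8.6%), 0 after 30 min TWEAK (3.07%) and 1 after 6 h TWEAK (2.82%). These folds are averages over broad peaks and lower than those of the narrow lists.

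At the NFKBIA start the H3K27ac fold was 3.27 in vehicle, 2.62 and 2.02 after 30 min and 6 h TNFα, and 3.26 and 3.48 after 30 min and 6 h TWEAK. The acetylated length near the start was 2.37 kb in vehicle and 2.75 and 3.37 kb after TNFα, so the peak was longer where its average was lower. NFKBIB had 4.01 in vehicle, 6.02 and 5.08 after TNFα, and 4.79 and 4.53 after TWEAK. Its acetylated length near the start was 1.78 kb in vehicle, 1.34 and 1.53 kb after TNFα, and 1.52 and 1.42 kb after TWEAK. NFKBIE, NFKBIZ, NFKBID and BCL3 lay between 2.87 and 4.73 in all lists. BCL3 had the most acetylated sequence in its window, 15.9 to 17.6 kb, and NFKBID the least, 3.2 to 3.8 kb.

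**Figure D5:**
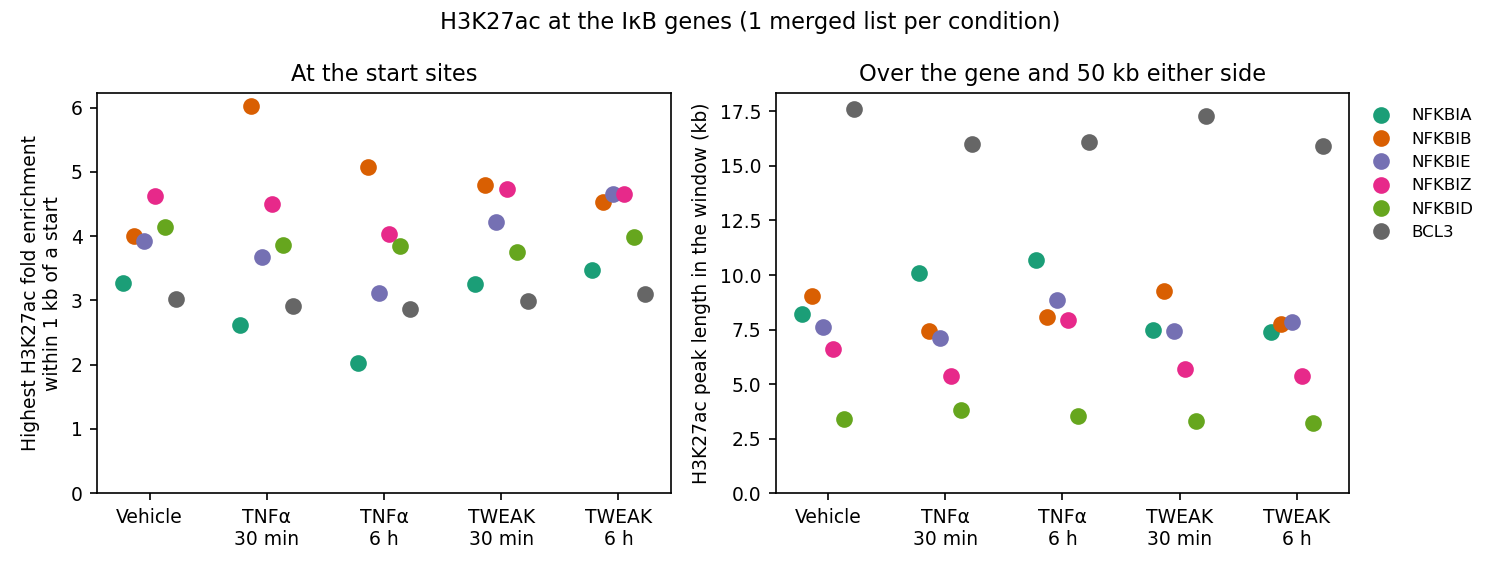
H3K27ac at the 6 IκB genes in the 5 treatments, as the highest fold enrichment within 1 kb of a start (left) and as the summed length of H3K27ac peaks in the window in kb (right). Each point is 1 merged list. NFKBIB is highest after 30 min TNFα with 6.02, and NFKBIA lowest after 6 h TNFα with 2.02.

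FOSL1 in vehicle was called in the windows of 6 of 6 members (background 90.6%) with 41 peaks, of which 18 overlapped a RELA or RELB peak. Of the 26 sites 17 carried FOSL1, against 48.9% of all RELA peaks after 30 min TNFα outside tandem repeats. The FOSL1 fold at sites near starts ran from 3.6 at the canonical start of BCL3 and 3.63 at the internal promoter of NFKBIZ to 9.29 at the BCL3 promoter. FOSL1 was called at 5 of the 7 sites with RELB after 6 h TWEAK, the exceptions being the NFKBIE intron and the BCL3 distal site. The share of all RELB peaks with FOSL1 was not computed, nor that of all FOSL1 peaks overlapping RELA or RELB. Neither count is therefore shown to be particular to the family. Of the 5 sites with TGANTCA, the NFKBIE promoter held 2 copies.

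The other genes of the pathway give the setting. All 5 NF-κB subunit genes had a RELA peak in each RELA list and a RELB peak after 6 h TWEAK, with the highest RELA folds after 30 min TNFα at NFKB1 (23.1) and RELB (19.4). Of 9 genes of kinases and adaptors, RELA was called at 4 in vehicle, 7 and 5 after 30 min and 6 h TNFα, and 4 and 4 after TWEAK, and RELB at 4 after 6 h TWEAK. IKBKG, the regulatory subunit of the IκB kinase, had 17.0 and TRAF2 16.4 after 30 min TNFα, and BIRC2 and BIRC3 share 1 window and count separately. Of 6 genes of other inhibitors, such as TNFAIP3 (18.8) and CYLD (16.5), RELA was called at 3, 5, 5, 3 and 4 in the same order and RELB at 5 after 6 h TWEAK. Over all protein-coding genes, the shares with a RELA peak were 5.05%, 48.1%, 26.8%, 7.58% and 5.11% in that order. For RELB after 6 h TWEAK the share was 13.6%, and 2.88% of all genes had a RELA peak in each RELA list.

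In height, the median best RELA fold over the called IκB genes was above that over all called genes after TNFα and after 30 min TWEAK, equal to it in vehicle and below it after 6 h TWEAK. It was 6.72 in vehicle, 14.5 and 13.9 after 30 min and 6 h TNFα, and 11.8 and 5.44 after 30 min and 6 h TWEAK. Over all genes with a call, the median was 6.72, 7.51, 7.06, 7.61 and 5.83. Peaks in tandem repeats count in these medians over all genes, while no site of the family lies in such a repeat. For RELB after 6 h TWEAK the 3 called members had 11.1 and all called genes 7.35.

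The genes whose pattern was most alike over the 10 RELA and RELB lists were ranked by Pearson's r of log2 best fold plus 1, with 0 for no call, among the 1075 genes called in at least 5 lists. For NFKBIA they were TNFAIP3, CUEDC2 and FBXL15 (r = 0.978), and the last 2 have the same values as NFKB2. Each of them had a higher best RELA fold after 30 min TNFα than in vehicle (18.8 and 13.9 at TNFAIP3). NFKBIA had a lower one (9.77 and 14.9). For NFKBIB the most alike genes included NEDD4 and RFX7 (0.998), which have the same values, and for NFKBIZ they included BOLA1 and H2AC18 (0.997), which again have the same values. EIF2S3, KLHL15 and SRSF12 followed for NFKBIE (0.998), of which EIF2S3 and KLHL15 have the same values. For BCL3 they were PPIAL4C (1.0), CEMIP and PPIAL4D (0.999). The points of such an r share their libraries, and a RELB list without a call enters it as 0. NFKBID was called in too few lists to be ranked.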

How the data were processed

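ChIP-seq was performed in L3.6pl cells on 48 samples, in 16 conditions of 3 replicates grouped by their labels. Per the submitters' processing notes, reads were handled with Bowtie2 2.5.0, SAMtools 1.18, MACS2 (version not given in the sources used here) and deepTools 3.3.2, and the build is hg38. The authors called peaks against input, narrow for RELA, RELB and FOSL1 (11 lists) and broad for H3K27ac (5 lists), with 1 merged list per condition. The deposited fold enrichment is the authors' ratio of ChIP over input, and the deposited −log10 q is the authors' significance of a peak. In broad lists both are averages over the peak. How reads with several matches were treated is not given in the sources used here. Depth per sample is unknown, so no interval is given.

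Peaks outside chromosomes 1 to 22, X and Y were left out, and none of the others lay past a chromosome end. Overlaps needed 1 bp. Sites were placed on GENCODE 44 with own code in Python 3.11.15 (numpy 2.4.6, pandas 2.3.3, pysam 0.24.0), which was tested on simulated data. A summit counted as tandem repeat when the 1000 bp around it matched themselves, at any shift of 1 to 400 bp, at a share of at least 0.4. All 6 members are named, with each site within 1 kb of a member's start and the 4 sites of highest fold per member, at most 2 genes per pathway list by RELA fold at 30 min of TNFα, and 3 genes of like pattern per member, of which 1 gene is not reported here. Further sites were named after their values were seen. The members and lists were chosen with earlier results of these data known, and the split by tandem repeats comes from those results. Alternatives were a q limit, a fold limit, a narrower window, a larger overlap, no tandem repeats and other H3K27ac and motif rules.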

Additional observations from a re-analysis of the deposited data

How the results depend on the processing

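The 8 counts that the comparisons rest on were recomputed in 38 alternatives, and 34 stayed within 1.5 times the main count. With a window of 10 kb in place of 50 kb, the RELA sites at 30 min of TNFα numbered 17, those not called in vehicle 10, and those that gained H3K27ac 1, since fewer peaks lie in a narrower window. With a fold of at least 5, the sites that gained H3K27ac numbered 1, since the NFKBIE intron site falls under that limit. All 6 members kept a RELA site at 30 min of TNFα, and the RELB sites at 6 h of TWEAK numbered 7, under every alternative run for them. No paired analysis was possible because each condition has 1 merged list. With 1 list per condition, neither the spread between replicates nor a difference in depth between lists can be measured, and an uncalled site cannot be told apart from a shallower list. Genes share windows, so a peak may belong to a neighbour.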
